A study of Epimedium pubescens with 27 samples.

Results

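EpF3H (Ebr04G062950), EpFLS3 (Ebr04G051790) and EpF3'5'H1 (Ebr01G061940) are 3 of the 58645 genes counted in leaves of Epimedium pubescens, a medicinal herb of the barberry family, and their levels are described here over all 9 combinations of nitrate supply and stage. Potted seedlings that had first recovered on dilute Hoagland solution were given nitrate at 0 mM (LN), 7.5 mM (MN) or 22.5 mM (HN), and leaves were taken 24 d (S1), 36 d (S2) and 48 d (S3) into treatment. Each combination has 3 RNA-seq libraries, A, B and C, which the methods call biological replicates, so there are 27 libraries. The substrate of sand and perlite, the greenhouse and the recovery period were common to every group, MN is the supply against which LN and HN were set, and the LN and HN plants were visibly damaged by S3. The genes were picked by identifier, and the study had taken them from genes that differed from MN at S3, so their S3 values are given as a description with no test, and tests are confined to S1 and S2.

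The 3 enzymes act next to each other in the flavonoid pathway. Flavanone 3-hydroxylase (F3H) turns naringenin, a flavanone, into a dihydroflavonol, which is the shared substrate of several branches. Flavonol synthase (FLS) turns dihydroflavonols into flavonols, the class to which the prenylated flavonol glycosides of Epimedium leaves (icariin and the epimedins) belong. Flavonoid 3',5'-hydroxylase (F3'5'H), a cytochrome P450, adds hydroxyl groups to the B ring, and in Petunia it is needed for the blue anthocyanins built on delphinidin. Dihydroflavonol 4-reductase (DFR), anthocyanidin synthase (ANS) and anthocyanidin reductase (ANR) carry dihydroflavonols to anthocyanins and flavan-3-ols instead of flavonols.

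In the coordinates of the deposited table, whose genome build goes unnamed there, EpF3H lies on chromosome 4 from 491866998 to 491869608 on the minus strand, with 1418 bases of summed length over a span of 2611 bases. Its closest listed protein is the naringenin,2-oxoglutarate 3-dioxygenase of Malus domestica. EpFLS3 lies on chromosome 4 from 405527936 to 405530814 on the plus strand, with 1257 bases, and its listed match is the flavonol synthase/flavanone 3-hydroxylase of Citrus unshiu. Both carry the iron-dependent oxygenase domain that the table lists for this enzyme family, so these neighbouring steps are run by the same kind of enzyme. EpF3'5'H1 lies on chromosome 1 from 536407183 to 536409054 on the minus strand, with 1789 bases, a cytochrome P450 domain and a match to flavonoid 3',5'-hydroxylase 1 of Petunia hybrida. No other listed gene overlaps any of the 3. The next FLS copy on the chromosome of EpFLS3, Ebr04G051800, starts 175312 bases further along and drew no reads in the 27 libraries. The next F3'5'H copy beside EpF3'5'H1, Ebr01G061950, is 129709 bases away and had 2 counts in all 27 libraries together. Exons and UTRs are not described here.

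The qPCR primers that the study designed for the 3 genes are the gene sequences at hand, and they are shown as the assay listed under each gene's identifier. They were not matched to a transcript here. The last 5 bases at the 3′ end, where extension starts, are in capitals.
EpF3H forward: ctttcttcccaccagTCATA
EpF3H reverse: gagttgatacggatctcATTAC
EpFLS3 forward: tggaagcgatcaaGAACC
EpFLS3 reverse: aggaggacgagcaTACAA
EpF3'5'H1 forward: ttcttcatcatctccGCTAG
EpF3'5'H1 reverse: gctctcctcctgaaCCTAT

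Library totals lay between 13609959 and 18482851 counts on genes, and the FPKM values used for levels are counts divided by gene length and by a factor for each library. Summed FPKM of 57 leaf photosynthesis genes (Rubisco small subunit and chlorophyll a-b binding proteins) ranged from 1.995e+04 in LN S3 C to 6.076e+04 in MN S2 B. The 3 genes for Casparian strip membrane proteins, which mark root endodermis, summed to at most 0.692 FPKM. Of 156 genes with flower homeotic names 115 had no count, and their sum ranged from 28.88 to 72.58 FPKM. A list of 259 genes of dividing cells summed to between 2344 and 4246 FPKM. Fewer cells of a type and less RNA per cell cannot be told apart in such bulk libraries. No library was set aside.

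EpF3H, the gene that opens the dihydroflavonol pool, was the most abundant of the 3 at S1. At S1 it stood at 1003, 353.7 and 283.1 FPKM in LN (replicates A, B and C), 929.7, 539.4 and 987.8 FPKM in MN, and 1241, 902 and 1037 FPKM in HN. At S2 it stood at 465, 389.2 and 90.72 FPKM in LN, 595.7, 147 and 516.6 FPKM in MN, and 222.9, 223.9 and 181.5 FPKM in HN. At S3 the values were 142.2, 70.52 and 24.13 FPKM in LN, 202.8, 1015 and 447.5 FPKM in MN, and 50.3, 59.99 and 109.8 FPKM in HN. The 4 highest of the 27 libraries were therefore HN S1 A, HN S1 C, MN S3 B and LN S1 A, and the lowest was LN S3 C. By group mean the order was HN S1 (1060 ± 170.5 FPKM), MN S1 (819 ± 243.9), MN S3 (555.2 ± 416.9), LN S1 (546.6 ± 396.7), MN S2 (419.8 ± 239.5), LN S2 (315 ± 197.9), HN S2 (209.4 ± 24.24), LN S3 (78.95 ± 59.48) and HN S3 (73.38 ± 31.94), each with SD and n = 3. Along that order the ranges of neighbouring groups overlapped at every step except 1, between HN S2 and LN S3.

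EpFLS3, which draws on the pool that EpF3H fills, did not share this order. At S1 its group means lay below those of S2, with 136.9, 74.44 and 110.3 FPKM in LN, 62.01, 167.3 and 153 FPKM in MN, and 177.7, 58.74 and 62.42 FPKM in HN. At S2 it was 323.9, 188.4 and 162.2 FPKM in LN, 221.4, 160.2 and 391.7 FPKM in MN, and 233.5, 247.5 and 214.3 FPKM in HN. At S3 it was 107, 78.1 and 17.03 FPKM in LN, 91.96, 638.3 and 221.7 FPKM in MN, and 63.36, 64.92 and 100.4 FPKM in HN. Of the 9 S2 libraries, 7 lay above every S1 library. The group means ran from MN S3 (317.3 ± 285.5 FPKM) through MN S2 (257.7 ± 120), HN S2 (231.7 ± 16.66), LN S2 (224.8 ± 86.78), MN S1 (127.4 ± 57.11), LN S1 (107.2 ± 31.35), HN S1 (99.62 ± 67.65) and HN S3 (76.21 ± 20.93) down to LN S3 (67.39 ± 45.94, SD, n = 3 in each group). No neighbours in this order were separated by their ranges.

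EpF3'5'H1, the B-ring hydroxylase, had the widest span, from 0.258 to 345.9 FPKM over the 27 libraries. At S1 it stood at 345.9, 79.56 and 46.97 FPKM in LN, 151, 66.38 and 315.9 FPKM in MN, and 284.3, 86.99 and 337.3 FPKM in HN. At S2 it stood at 85.64, 114.7 and 1.513 FPKM in LN, 37.91, 0.7576 and 8.417 FPKM in MN, and 32.49, 77.6 and 46.5 FPKM in HN. At S3 it was 2.496, 2.825 and 0.258 FPKM in LN, 11.33, 131.7 and 0.8704 FPKM in MN, and 3.742, 4.21 and 6.259 FPKM in HN. The low values still rest on reads, since LN S3 C had 8 counts, MN S2 B 18, MN S3 C 26 and LN S2 C 44. By group mean it ran from HN S1 (236.2 ± 131.9 FPKM), MN S1 (177.8 ± 126.9), LN S1 (157.5 ± 164), LN S2 (67.3 ± 58.8), HN S2 (52.19 ± 23.09), MN S3 (47.96 ± 72.7) and MN S2 (15.7 ± 19.62) to HN S3 (4.737 ± 1.339) and LN S3 (1.86 ± 1.397, SD, n = 3 in each group), and only the last pair of neighbours had ranges that did not overlap. Within MN S3 the 3 libraries differed by 7.13 on the log2 CPM scale, a spread larger than that of 99.58% of the 28608 genes compared. The spread was 6.17 in LN S2 and 5.56 in MN S2, against medians over all genes of 0.83 and 0.86.

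**Figure D1:**
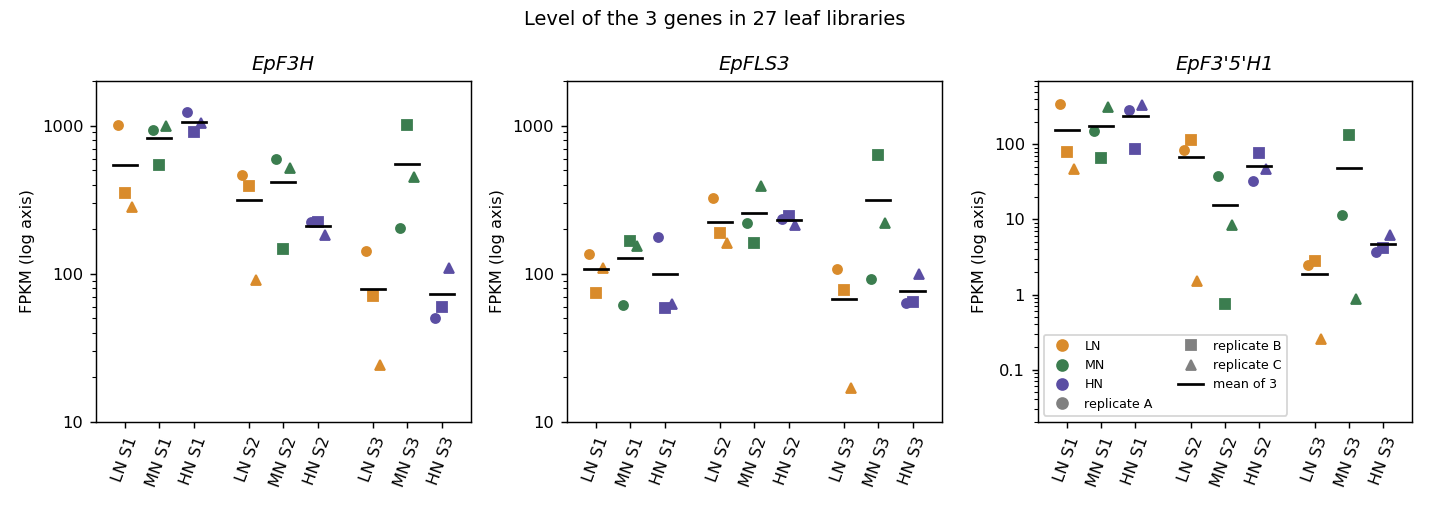
FPKM of each gene (log axis) in the 27 libraries, by nitrate supply (colour) within stage, with points for replicates A, B and C and a line at the mean of 3. EpF3H and EpF3'5'H1 have their highest group mean in HN S1, although the mean of EpF3H in MN S3 exceeds that in LN S1. EpFLS3 is higher at S2 than at S1 in most libraries, and MN S3 B is the highest S3 library for all 3 genes.

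Whether the 3 genes differed between nitrate supplies at S1 and S2 was asked with edgeR's quasi-likelihood test. Calls were made where the p adjusted by Benjamini and Hochberg's method over all genes tested was below 0.05 and the log2 fold change was at least 1 in size. All 3 genes passed the filter on low counts in each comparison. In LN compared with MN at S1 the log2 fold changes were -0.59 (SE 0.54) for EpF3H, -0.25 (SE 0.42) for EpFLS3 and -0.18 (SE 0.85) for EpF3'5'H1, with adjusted p from edgeR between 0.848 and 0.984. None of the 3 was called by edgeR or DESeq2 and none had an unadjusted p below 0.05, against 0.00918% of 21777 genes called by edgeR, 8.64% with an unadjusted p below 0.05 and 3.09% called by DESeq2. In HN compared with MN at S1, EpF3H differed by 0.34 (SE 0.33), EpFLS3 by -0.39 (SE 0.55) and EpF3'5'H1 by 0.38 (SE 0.66), with adjusted p from edgeR between 0.886 and 0.956. Again none of the 3 met any of the 3 criteria, which 0.111%, 9.31% and 3.79% of the genes did.

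At S2 the position was the same for EpFLS3 and looser for the others. In LN compared with MN at S2 the log2 fold changes were -0.43 (SE 0.73) for EpF3H, -0.20 (SE 0.42) for EpFLS3 and 2.08 (SE 1.66) for EpF3'5'H1, and the lowest adjusted p from edgeR was 0.635. None of the 3 was called by edgeR (0% of all genes were) or DESeq2 (4.1%), and none had an unadjusted p below 0.05 (13.3%). In HN compared with MN at S2 the values were -1.02 (SE 0.50) for EpF3H, -0.17 (SE 0.34) for EpFLS3 and 1.70 (SE 1.16) for EpF3'5'H1, and the lowest adjusted p from edgeR was 0.342, for EpF3H. None of the 3 met a criterion there either, against 0.018% of genes called by edgeR, 6.51% by DESeq2 and 18.4% at an unadjusted p below 0.05. Every SE for EpF3'5'H1 at S2 exceeded 1 on the log2 scale, and a p that misses the threshold does not show that the supplies had the same level. The LN and HN comparisons at a stage share their MN libraries. Leaf photosynthesis genes summed to 2.574e+04 to 4.062e+04 FPKM in LN S2 and 2.078e+04 to 3.288e+04 FPKM in HN S2, against 5.765e+04 to 6.076e+04 FPKM in MN S2, and the part of this difference in the members' values was not tested.

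The other genes of the pathway, 92 in 12 lists drawn up from the words of the gene descriptions, gave the same count. In LN compared with MN, 0 of 42 tested at S1 and 0 of 39 at S2 were called by edgeR (0.00918% and 0% of all genes). An unadjusted p below 0.05 was met by 4 and 3 (8.64% and 13.3% of all genes), and DESeq2 called 1 of 44 and 0 of 44 (3.09% and 4.1%). In HN compared with MN, 0 of 44 at S1 and 0 of 41 at S2 were called by edgeR (0.111% and 0.018% of all genes). An unadjusted p below 0.05 was met by 4 and 5 (9.31% and 18.4% of all genes), and DESeq2 called 2 of 50 and 3 of 47 (3.79% and 6.51%). Their median log2 fold changes were -0.49 (LN, S1), 0.42 (HN, S1), -0.22 (LN, S2) and -0.47 (HN, S2), beside medians of all genes between -0.02 and 0.01.

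The step between S1 and S2 gave the calls that the comparisons of supply did not, first of all in HN. In HN, EpF3H fell to 222.9, 223.9 and 181.5 FPKM at S2, against 1241, 902 and 1037 FPKM at S1, which is -2.34 on the log2 scale (SE 0.24, n = 3 each) with an adjusted p of 0.0114 by edgeR and 3.49e-17 by DESeq2. The HN replicates of EpF3H sat close together at both stages, and no S2 library reached the S1 range. It was the only one of the 3 called by edgeR in HN, where 6.46% of the 22426 genes tested were called. DESeq2 called EpF3H and EpF3'5'H1 there, against 12.5% of all genes. EpF3'5'H1 had 32.49, 77.6 and 46.5 FPKM in HN S2, against 284.3, 86.99 and 337.3 FPKM in HN S1. Its fitted difference was -2.18 (SE 0.56), with an adjusted p of 0.0648 by edgeR and 0.00108 by DESeq2, and the ranges did not overlap although the lowest S1 library (86.99 FPKM) came close to the highest S2 library (77.6 FPKM). EpFLS3 went the other way in HN, with a fitted difference of 1.23 (SE 0.45) that was not called (adjusted p 0.151 by edgeR and 0.0564 by DESeq2), and its S2 libraries all lay above its S1 libraries. Without HN S1 replicate A, its highest S1 library in HN at 177.7 FPKM, the difference was 1.96 with an adjusted p of 0.0096 by edgeR and was called. Over all genes that fit called 3741, against 1448 with every library. The call of EpF3H was lost without HN S2 replicate B (adjusted p 0.079) or HN S2 replicate C (0.081), and in 1 fit of all 27 libraries (0.0564). Over all genes these fits called 0, 34 and 1333, so the first 2 losses came with a fall in calls at large. Leaf photosynthesis genes summed to between 2.078e+04 and 3.288e+04 FPKM in HN S2 and between 2.807e+04 and 5.24e+04 FPKM in HN S1, ranges that overlap, and their part in the result was not tested.

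In MN the same directions appeared with wider replicates. EpF3'5'H1 had 37.91, 0.7576 and 8.417 FPKM in MN S2, against 151, 66.38 and 315.9 FPKM in MN S1, and the groups did not overlap. The fitted difference of -3.51 (SE 1.303) was not called by edgeR (adjusted p 0.201) and was called by DESeq2 (0.0122). EpF3H differed by -0.98 (SE 0.55) and EpFLS3 by 1.003 (SE 0.49) in MN, with adjusted p from edgeR of 0.363 and 0.303, and both genes had overlapping ranges. Thus 0 of the 3 were called by edgeR, where 1.27% of genes were, 1 of 3 was called by DESeq2 (10.6% of genes) and 1 of 3 had an unadjusted p below 0.05 (20.8%). Leaf photosynthesis genes summed to between 5.765e+04 and 6.076e+04 FPKM in MN S2, all above the 3.192e+04 to 4.3e+04 FPKM of MN S1, and their part in the MN differences was not tested.

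In LN the S2 libraries differed from S1 by -0.80 (SE 0.73) for EpF3H, 1.07 (SE 0.35) for EpFLS3 and -1.24 (SE 1.36) for EpF3'5'H1, with adjusted p from edgeR of 0.744, 0.483 and 0.785. The falls of EpF3H and EpF3'5'H1 rested on LN S1 replicate A, without which the differences were -0.018 and 0.084. By median, EpF3H had 389.2 FPKM in LN S2 and 353.7 in LN S1, and EpF3'5'H1 had 85.64 and 79.56 FPKM. EpFLS3 had the clearest separation, with 323.9, 188.4 and 162.2 FPKM in LN S2, against 136.9, 74.44 and 110.3 FPKM in LN S1, and the groups did not overlap. None of the 3 was called by edgeR, and no gene at all was (0%), none was called by DESeq2 (2.12% of genes), and 1 of the 3, EpFLS3, had an unadjusted p below 0.05 (9.7%).

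With all libraries kept, the fitted directions were alike in the 3 supplies, though in LN those of EpF3H and EpF3'5'H1 rested on 1 library. The mean of the 3 within-supply stage differences was therefore also tested on the 18 libraries of S1 and S2, a fit chosen after seeing the data. Averaged in this way, EpF3H was lower at S2, at -1.37 on the log2 scale (SE 0.35, adjusted p 0.0148 by edgeR), EpFLS3 was higher by 1.10 (SE 0.27, 0.0133) and EpF3'5'H1 was lower, at -2.30 (SE 0.74, 0.0417). All 3 were called by edgeR, and so were 11.2% of the 26804 genes tested, while DESeq2 called all 3 and 13.4% of genes. EpF3H kept its call when any 1 of the 18 libraries was left out. EpFLS3 fell just under the fold threshold without LN S2 replicate A (0.99) or MN S2 replicate C (0.97), with adjusted p still below 0.05. The call of EpF3'5'H1 was lost in 13 of the 18 fits that left out 1 library, with adjusted p from edgeR up to 0.101, and in 1 fit of all 27 libraries (0.0548).

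The stage step itself was compared between supplies as an interaction on 12 libraries. The difference between HN and MN shifted by -1.36 (SE 0.62) for EpF3H at S2 relative to S1, with an unadjusted p of 0.0511 and an adjusted p of 0.398 by edgeR, so the deeper fall of EpF3H in HN was not shown to differ from that in MN. The shifts of EpFLS3 (0.22, SE 0.71) and EpF3'5'H1 (1.34, SE 1.42) were not called either. For LN the shifts were 0.18 (SE 0.98) for EpF3H, 0.08 (SE 0.64) for EpFLS3 and 2.27 (SE 1.99) for EpF3'5'H1. No interaction of the 3 genes was called by edgeR or DESeq2 or had an unadjusted p below 0.05. Over all genes edgeR called 0.0563% in LN and 0.198% in HN, DESeq2 called 2.84% and 3.32%, and 11.7% and 12.6% had an unadjusted p below 0.05.

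**Figure D2:**
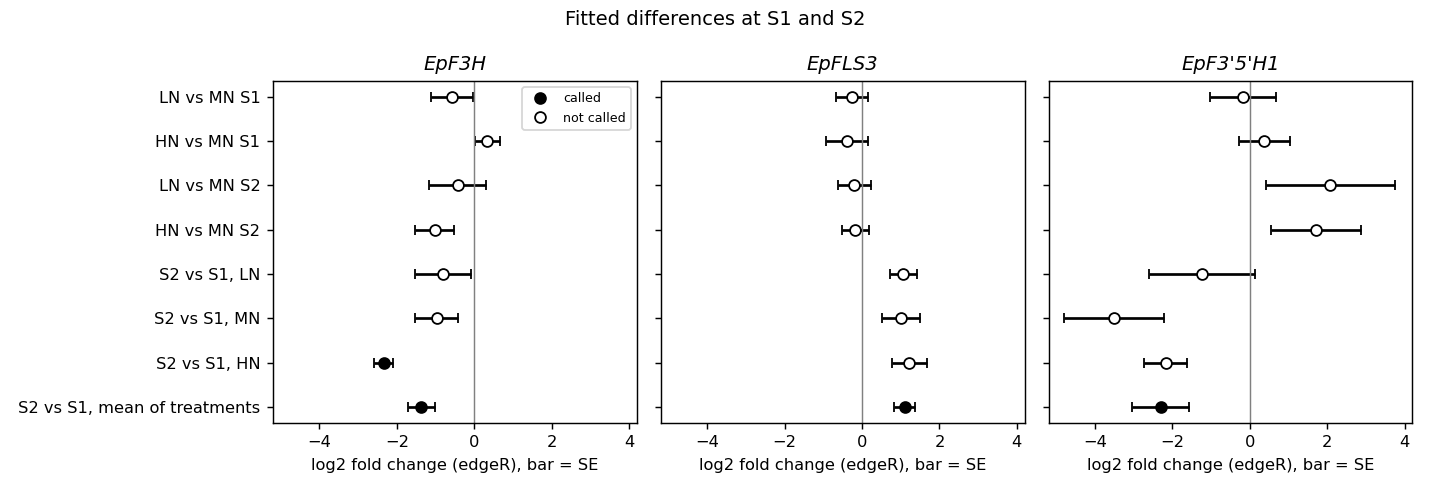
Log2 fold change of each gene from edgeR (x axis, bar = SE) in 8 comparisons at S1 and S2, with called genes filled. Supply differences at S1 and S2 are open for all 3 genes, and the stage differences run below 0 for EpF3H and EpF3'5'H1 and above 0 for EpFLS3.

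Most of the other pathway genes called in this step had the direction of EpF3H and EpF3'5'H1. In HN, edgeR called 15 of 45 other pathway genes tested lower at S2 than at S1 and 0 higher. DESeq2 called 18 of 52 lower and 1, in the F3'H list, higher, where it called 12.5% of all genes in either direction. The edgeR count stands beside 2.52% of all genes called lower, and the median log2 fold change of the 45 was -1.23, beside -0.01 for all genes. The genes called lower by edgeR in HN were 6 of 9 in the list of flavonoid 3'-hydroxylases (F3'H), which place a single hydroxyl on the B ring, 3 of 6 chalcone synthases (CHS, the entry step), 1 of 4 chalcone isomerases, 2 of 2 ANS genes, 2 of 4 in the list of leucoanthocyanidin and anthocyanidin reductases and 1 of 7 phenylalanine ammonia-lyases. Among them were the ANS genes Ebr05G052880 (-2.88, SE 0.43, adjusted p 0.0209 by edgeR) and Ebr05G052940 (-2.27, SE 0.36, adjusted p 0.0246 by edgeR), and the ANR gene Ebr03G023120 (-2.64, SE 0.33, adjusted p 0.0154 by edgeR). Some called genes have close identifiers, such as Ebr03G048300, Ebr03G048320, Ebr03G048460 and Ebr03G048480, or Ebr03G073770 and Ebr03G073780. How reads shared between such genes were counted is not stated, so their calls may not be separate. In the mean over supplies, 18 of 53 other pathway genes were called lower and 0 higher, beside 4.42% of all genes called lower, with a median of -0.94. EpFLS3 was the single gene of the pathway lists that was called higher in that fit. In LN 0 of 39 and in MN 0 of 39 other pathway genes were called by edgeR (0% and 1.27% of all genes), and their medians were -0.61 and -0.75. An unadjusted p below 0.05 was met by 9 and 13 of them, against 9.7% and 20.8% of all genes. DESeq2 called 6 of 43 lower and 0 higher in LN, where it called 2.12% of all genes. In MN it called 11 of 46 lower and 1, a 4-coumarate-CoA ligase, higher, where it called 10.6% of all genes.

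In the mean over supplies EpFLS3 therefore moved against EpF3H and, of its own family, against the other abundant gene. The ratio of EpFLS3 to EpF3H, both in FPKM and so per length, was 0.0602 to 0.389 in the S1 libraries, 0.372 to 1.79 in the S2 libraries and 0.453 to 1.26 in the S3 libraries. In HN it averaged 1.11 ± 0.0671 at S2, against 0.0895 ± 0.0466 at S1 (SD, n = 3 each), in LN 0.990 ± 0.700 against 0.246 ± 0.130, and in MN 0.740 ± 0.359 against 0.177 ± 0.123. At S3 it was 0.855 ± 0.220 in LN, 0.526 ± 0.0915 in MN and 1.09 ± 0.173 in HN, and the 3 HN S3 libraries lay above the 3 MN S3 libraries. The ratio of EpF3'5'H1 to EpF3H averaged 0.221 ± 0.0919 over the S1 libraries, 0.148 ± 0.130 over the S2 libraries and 0.0508 ± 0.0394 over the S3 libraries (SD, n = 9 each).

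A second flavonol synthase gene, Ebr05G059690 on chromosome 5 from 439110591 to 439111785, was on average the more abundant FLS transcript at S1 and the lesser one later. It averaged 55.94 ± 39.32 FPKM in LN S2, against 151.3 ± 54.95 FPKM in LN S1, 11.96 ± 19.06 FPKM in MN S2, against 129.7 ± 46.54 FPKM in MN S1, and 35.71 ± 18.99 FPKM in HN S2, against 230.8 ± 147.8 FPKM in HN S1 (SD, n = 3 each). Its fitted difference between S2 and S1 was -2.51 (SE 0.64, adjusted p 0.0152 by edgeR) in the mean over supplies, opposite in sign to that of EpFLS3. In HN alone it was -2.69 (SE 0.62) with an adjusted p of 0.0519 by edgeR and 0.000123 by DESeq2. As a share of the summed FPKM of the 4 FLS genes, EpFLS3 made up 20.6% to 60.2% in the S1 libraries, 66.2% to 99.9% in the S2 libraries and 50.5% to 98.8% in the S3 libraries. How reads shared between the copies were counted is not stated in the labels or methods, so the split between EpFLS3 and Ebr05G059690 carries that uncertainty.

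Unlike EpFLS3, the other members were the most abundant genes of their classes at S1. EpF3H held 85.2% to 96.8% of the summed FPKM of the 9 genes of its class at S1, 71.5% to 94.4% at S2 and 32.6% to 97.1% at S3. The next gene, Ebr04G011220 (a match to flavanone 3-dioxygenase 3), averaged 41.72 FPKM in S1, 30.06 FPKM in S2 and 46.57 FPKM in S3 libraries. EpF3'5'H1 held 74.2% to 94.8% of the 6 F3'5'H genes at S1, 3.19% to 85.6% at S2 and 1.64% to 81.3% at S3. The lowest shares were in MN S2 B and LN S3 C, where the level of EpF3'5'H1 itself was below 1 FPKM. The F3'5'H gene Ebr05G058370 held steadier, with means of 17.23 FPKM in S1, 17.46 FPKM in S2 and 15.07 FPKM in S3 libraries, and was the main transcript of the class in such libraries.

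**Figure D3:**
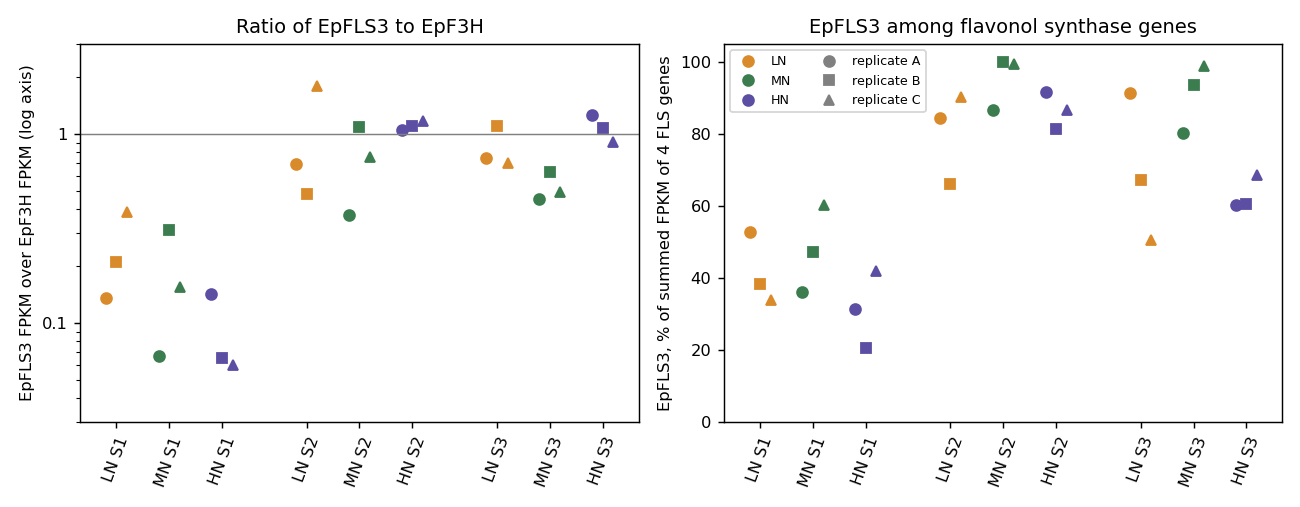
Left, FPKM of EpFLS3 over FPKM of EpF3H in each library (log axis, line at 1); right, EpFLS3 as a percentage of the summed FPKM of 4 flavonol synthase genes, both by supply (colour) within stage. S2 libraries lie between 0.372 and 1.79 on the left and between 66.2% and 99.9% on the right, and S1 libraries between 0.0602 and 0.389 and between 20.6% and 60.2%.

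How alike the 3 patterns are was described by Pearson's r of log2 CPM over libraries, which share treatments, stages and normalization and so are given without p. EpF3H and EpF3'5'H1 varied together, with r = 0.81 over 27 libraries, 0.78 over the 18 of S1 and S2 and 0.79 for deviations from the 9 group means. EpF3H and EpFLS3 had r = 0.46 over 27 libraries, -0.34 over the 18 of S1 and S2, 0.04 within S1, 0.70 within S2 and 0.96 within S3. Within S3 the 2 genes thus kept nearly the same order of libraries, while between S1 and S2 they moved apart. Both were chosen among genes that differed from MN at S3, which can by itself raise r within S3 and over the 27 libraries. EpFLS3 and EpF3'5'H1 had r = 0.29 over 27 libraries and -0.31 over the 18 of S1 and S2.

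Among 28607 other genes, the 5 most like EpF3'5'H1 over the 27 libraries were the DFR gene Ebr05G024170 (r = 0.948), the ANS genes Ebr05G052880 (0.941) and Ebr05G052940 (0.941), the ANR gene Ebr03G023120 (0.934) and Ebr05G040150 (0.930), a match to a WAT1-related transporter protein of Arabidopsis thaliana. Over the 18 libraries of S1 and S2 alone these r were between 0.895 and 0.938. Ebr05G024170 averaged 145.2 FPKM in LN, 216.8 in MN and 320 in HN at S1, 95.58, 21.26 and 161.5 FPKM in the same order at S2, and 13.78, 71.03 and 28.83 FPKM at S3. EpF3'5'H1 and this gene were both lower in MN S2 than in the other S2 groups by mean.

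For EpF3H the 5 most alike genes were Ebr04G004880 (r = 0.871, with a serine hydrolase domain), the ANS gene Ebr05G052940 (0.855), the chalcone synthases EpCHS2 (0.838) and EpCHS5 (0.837), and Ebr04G070630 (0.835), a match to a cytochrome b5 of Arabidopsis thaliana. EpF3'5'H1 was the 8th. Over the 18 libraries of S1 and S2 the r of Ebr05G052940 was 0.909 and that of Ebr04G070630 was 0.900. Those of Ebr04G004880 (0.707), EpCHS2 (0.460) and EpCHS5 (0.476) were lower than over the 27. The likeness to these 3 genes thus leaned on S3, most of all for the chalcone synthases.

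For EpFLS3 the list held none of these. Its most alike gene was EpUGT16_A (r = 0.841), a match to a rhamnosyltransferase that acts on anthocyanidin glucosides in Petunia, followed by Ebr01G045000 (0.790, an alpha-glucan phosphorylase), Ebr04G074690 (0.789, a subunit of mitochondrial complex I), Ebr02G055520 (0.788, with no listed match) and EpPAL3 (0.771), a phenylalanine ammonia-lyase. The prenyltransferase EpPT8 was the next, with r = 0.77. Over the 18 libraries of S1 and S2 these r were lower for EpUGT16_A (0.622), Ebr01G045000 (0.693), Ebr04G074690 (0.579), EpPAL3 (0.502) and EpPT8 (0.52). That of Ebr02G055520 was 0.837, so the other likenesses leaned on S3. EpUGT16_A, like EpFLS3, was called higher at S2 than at S1 in the mean over supplies (1.22, SE 0.30, adjusted p 0.0112 by edgeR). The regulators MYB1 and MYB12, which the study set beside flavonoid genes, had r of 0.57 and 0.32 with EpFLS3 over the 27 libraries and 0.26 and 0.02 over the 18 of S1 and S2, and MYB1 was 404th of the 28607 genes in likeness to it. With EpF3H their r was 0.32 and 0.31 over the 27 libraries and -0.43 and 0.02 over the 18, and with EpF3'5'H1 it was 0.18 and 0.13 over the 27. The study worked from genes that differed at S3. It reported strong correlations of both regulators with UDP-glycosyltransferase genes, and varying ones with EpFLS3 and EpF3H. The r here span all stages or S1 and S2, give no value for S3 alone, and do not test those links. The level of MYB1 was near the floor, with group means from 0 FPKM in HN S3 to 2.247 FPKM in MN S3, so its r are imprecise.

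**Figure D4:**
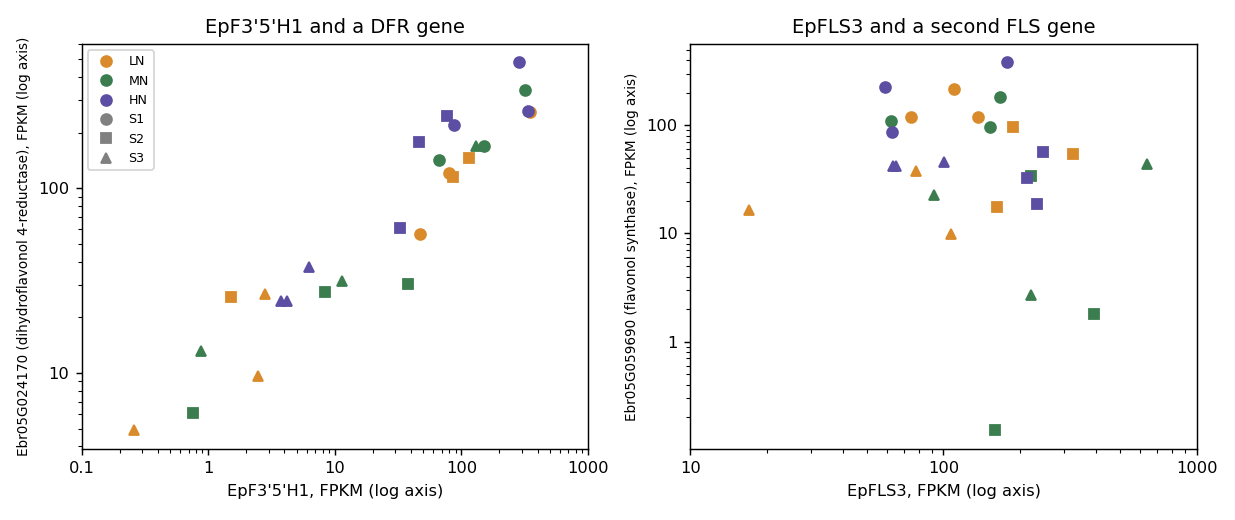
FPKM of EpF3'5'H1 against the DFR gene Ebr05G024170 (left) and of EpFLS3 against the second FLS gene Ebr05G059690 (right), 1 point for each of the 27 libraries, log axes, colour for supply and shape for stage. The left points follow a single rising band (r = 0.948 of log2 CPM). On the right the S1 libraries lie at lower EpFLS3 than most S2 libraries and at higher Ebr05G059690 than most later libraries.

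At S3, the stage whose comparisons chose the genes, all 3 had lower means in LN and HN than in MN. EpF3H had 142.2, 70.52 and 24.13 FPKM in LN S3 and 50.3, 59.99 and 109.8 FPKM in HN S3, against 202.8, 1015 and 447.5 FPKM in MN S3, and neither range reached that of MN. The ratio of means to MN was 0.142 for LN and 0.132 for HN, with fitted log2 fold changes of -2.81 and -2.93. EpFLS3 had ratios of 0.212 in LN and 0.240 in HN (-2.23 and -2.07), and MN S3 A at 91.96 FPKM lay below the highest LN library (107 FPKM) and the highest HN library (100.4 FPKM). EpF3'5'H1 had ratios of 0.0388 in LN and 0.0988 in HN (-4.69 and -3.36), and MN S3 C at 0.8704 FPKM lay below 2 of the 3 LN libraries and every HN library. Since these contrasts chose the genes, the values are a description, and both contrasts share the 3 MN S3 libraries.

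MN S3 B set much of the size of these ratios. It was the highest S3 library for all 3 genes, at 1015 FPKM for EpF3H, 638.3 FPKM for EpFLS3 and 131.7 FPKM for EpF3'5'H1, and the highest of all 27 for EpFLS3. Without it the ratios to MN became 0.243 in LN and 0.226 in HN for EpF3H, 0.430 and 0.486 for EpFLS3, and 0.305 and 0.777 for EpF3'5'H1. EpF3H thus stayed apart from MN in its ranges, whereas EpF3'5'H1 in HN came near the MN mean. The library did not stand out over genes at large, being the highest of the 27 for 332 of 28608 genes (1.16%) and the highest of the 3 MN S3 libraries for 31.85% of genes. It was the highest of those 3 for 33 of 53 other pathway genes. At the other end LN S3 C was the lowest of all 27 libraries for each of the 3 genes, and it also had the lowest summed photosynthesis level. Whether that level has a part in the low values was not tested.

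**Figure D5:**
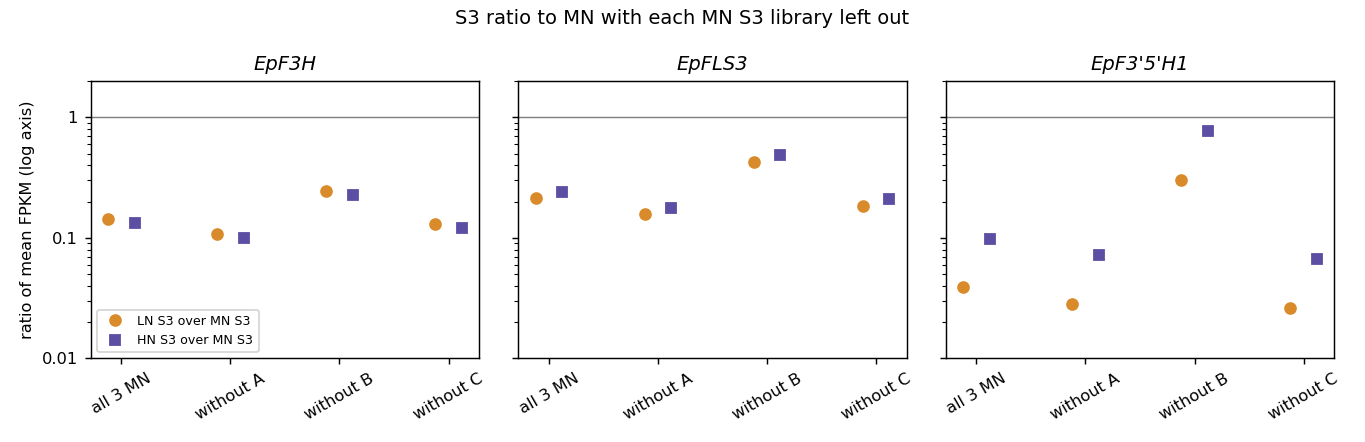
Ratio of mean FPKM at S3, LN or HN over MN (log axis, line at 1), with all 3 MN libraries and with each left out. Without MN S3 replicate B the ratios rise to 0.243 and 0.226 for EpF3H, 0.430 and 0.486 for EpFLS3, and 0.305 and 0.777 for EpF3'5'H1.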

How the data were processed

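The 27 RNA-seq libraries, made from total leaf RNA, were grouped by the labels. Per the submitters' processing notes and the methods, the authors aligned reads with HISAT2 2.0.5, added genes with StringTie 1.3.3b and counted with featureCounts 1.5.0-p3. The labels, the methods and the table name no build, annotation version or strand setting. The authors deposited counts per gene and FPKM, which they made from those counts: each FPKM equals the count over gene length times a library factor that is proportional to the reciprocal of DESeq2's size factor. The deposited gene lengths are sums in bases.

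Counts were tested two-sided with edgeR 4.0.16 in R 4.3.3 (TMM, filterByExpr, quasi-likelihood F test, SE as the absolute log2 change divided by root F), with p-values adjusted over all genes tested. The code was checked on simulated data with large planted changes and less spread between replicates than these libraries have. That check does not tell how many real changes the test misses here. A gene was called at an adjusted p below 0.05 and a log2 fold change of at least 1 in size, and an interaction at the adjusted p alone. Each fit used the 6 libraries of its groups, 12 for an interaction, or 18 for the mean over supplies. Alternatives were DESeq2 1.42.0, RLE normalization, no filter, a replicate block, 1 fit of the 27 libraries, no fold threshold, pseudocounts of 1 and 0.1 on FPKM, and leaving out each library. Python 3.11.15 made tables and figures.

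Genes named are the 3 members, genes the study names by identifier, genes of the 3 enzyme classes with a mean of at least 1 FPKM, called pathway genes, and the 5 genes most like each member. The copies next to EpFLS3 and EpF3'5'H1 on their chromosomes were named outside this rule, after their values were seen. The members and lists were chosen with earlier results of these data known. From the F3H list, 4 genes described as both enzymes were placed with FLS, and cyclin-dependent kinases were left out of the dividing-cell list. Libraries had 13609959 to 18482851 counts. How many plants make up a library is not stated, so p-values measure the spread between these libraries.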

Additional observations from a re-analysis of the deposited data

How the results depend on the processing

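The fitted differences of EpF3H, EpFLS3 and EpF3'5'H1 were computed again under 480 settings in all. Of these, 430 kept direction and, where tested, side of the threshold, 21 lost a call, 4 gained one and 23 changed sign. Another 2, S3 values, moved by more than the spread between replicates. Most settings concern differences without a call. In the mean over supplies, EpF3'5'H1 lost its call in 15 of 23 settings, EpFLS3 in 2 of 23 and EpF3H in 0 of 23. EpF3H in HN lost its call in 4 of 11. Each change of sign concerned a difference that was not called and came from leaving out 1 library. EpF3'5'H1 had the largest SE of the 3 in every comparison, and is the least precisely measured. The cause of the differences between tools was not tested.

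The number of genes called by edgeR at S1 and S2 was 2 (LN vs MN S1), 0 (LN vs MN S2), 24 (HN vs MN S1), 4 (HN vs MN S2), 0 (S2 vs S1 in LN), 275 (in MN), 1448 (in HN), 14 (LN interaction), 50 (HN interaction) and 2990 (mean over supplies). DESeq2 called 762, 1098, 965, 1774, 502, 2866, 3455, 766 and 929 genes in the first 9 of these. Without a filter on low counts the calls were 45 (LN vs MN S1), 19 (LN vs MN S2), 123 (HN vs MN S1), 50 (HN vs MN S2) and 89 (HN interaction). In 1 fit of all 27 libraries they were 1 (LN vs MN S1), 41 (LN vs MN S2), 55 (HN vs MN S1), 67 (HN vs MN S2), 841 (S2 vs S1 in MN) and 22 (LN interaction). Without a fold threshold the mean over supplies gave 5073.

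Replicate letters are shared by the groups, but the labels do not say that a letter pairs libraries. Deviations from the group means correlated on average by 0.0239 between libraries of the same letter (-0.26 to 0.282) and by -0.0118 between libraries of different letters, so the letters were not taken as pairs. With the replicate block the calls were 0 (LN vs MN S1), 0 (HN vs MN S1), 0 (HN vs MN S2), 0 (S2 vs S1 in MN), 93 (in HN), 4 (LN interaction) and 1 (HN interaction). With the block EpF3H in HN between S2 and S1 was at -2.33 (adjusted p 0.0545 by edgeR) and EpF3'5'H1 in the mean over supplies at -2.26 (0.0655), both without a call.

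Calls of the members that changed between fits were as follows. EpF3'5'H1 was called between S2 and S1 by DESeq2 in MN (-3.50, adjusted p 0.0122) and HN (-2.16, 0.00108), and in HN without a filter in edgeR (-2.13, 0.0449). In 1 fit of all 27 libraries EpF3H in HN was at -2.30 (adjusted p 0.0564 by edgeR) and EpF3'5'H1 in the mean over supplies at -2.29 (0.0548), neither called.

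Leaving out 1 library at a time, the calls ran from 0 to 20 (LN vs MN S1), 0 to 127 (LN vs MN S2), 0 to 434 (HN vs MN S1), 0 to 640 (HN vs MN S2), 0 to 1 (S2 vs S1 in LN), 0 to 1661 (in MN), 0 to 3741 (in HN), 6 to 148 (LN interaction) and 0 to 357 (HN interaction). The count of 0 in HN between S2 and S1 came without HN S2 replicate B and that of 3741 without HN S1 replicate A. For EpF3'5'H1 the log2 fold changes ran from -1.50 to 0.54 (LN vs MN S1), -0.033 to 1.08 (HN vs MN S1), -1.85 to 0.084 (S2 vs S1 in LN), -2.88 to -1.84 (mean over supplies), -5.27 to -1.71 (LN vs MN S3) and -3.94 to -0.38 (HN vs MN S3), the last 2 upper ends being without MN S3 replicate B. For EpF3H they ran from -0.82 to 0.0069 (LN vs MN S2), -2.40 to -2.19 (S2 vs S1 in HN) and -0.23 to 0.97 (LN interaction). For EpFLS3 they ran from -0.55 to 0.26 (LN vs MN S2), -0.44 to 0.26 (HN vs MN S2), 1 to 1.96 (S2 vs S1 in HN), -0.30 to 0.51 (LN interaction), -0.043 to 0.95 (HN interaction) and 0.97 to 1.35 (mean over supplies). EpFLS3 in HN was called only without HN S1 replicate A (1.96, adjusted p 0.0096 by edgeR).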
